A study of Homo sapiens with 10 samples.

Results

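The genes described here are the ligands and receptors that steer growing axons: semaphorins with their plexin and neuropilin receptors, ephrins with their Eph receptors, netrins with DCC and the UNC5 receptors, and SLITs with the ROBO receptors. Members were chosen by symbol and not by their values: every protein-coding gene of these families listed in both deposited count tables was taken, which gave 68 of the 19665 genes common to the NPC table (20965 genes) and the HEK293T table (22750 genes). Of the 68, 35 encode ligands (20 semaphorins, 8 ephrins, 5 netrins and netrin-G proteins, 2 SLITs) and 33 encode receptors (9 plexins, 2 neuropilins, 14 Eph receptors, DCC, 4 UNC5 and 3 ROBO receptors). A further 3 genes of these families (ROBO4, NTN5 and SLIT1) were listed in 1 of the tables only and are not counted among the members.

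The study compared wild-type (WT) cells with cells in which ZNF274, a KRAB zinc finger gene, had been deleted (KO) with Cas9 and a pair of guides placed on either side of the gene. The deletion was made in HEK293T, a human embryonic kidney line, and in the H1 human embryonic stem cell line, from which neural progenitor cells (NPCs) were derived through embryoid bodies in neural induction medium. RNA sequencing covered 3 WT (S15, S16, S17) and 3 KO (S18, S19, S20) HEK293T libraries, and 2 WT (S3, S5) and 2 KO (S1, S2) NPC libraries. The libraries are described as biological replicates from independent clones, but the labels do not tie a library to a clone or to a round of differentiation, so the p-values measure the spread between these libraries.

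Axon guidance molecules work as attractive or repulsive cues that a growth cone reads through receptors on its surface. Class 3 semaphorins are secreted and mostly bind neuropilins, with plexins passing the signal on; SEMA3E is the exception that binds plexin-D1 without a neuropilin. Ephrins are membrane-bound and act between touching cells, netrin-1 attracts through DCC and repels through UNC5 receptors, and SLITs repel through ROBO receptors; the same families also pattern vessels, neural crest and early neuroepithelium.

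Depth was 18621266 to 23035490 counts per library in NPCs and 21421013 to 32285876 in HEK293T cells. Levels are given as CPM (counts scaled to 1000000 reads of the library, after TMM scaling of library sizes). On this scale 3 counts, the level that a count of 0 allows, were worth 0.135 to 0.154 CPM in the NPC and 0.0921 to 0.131 CPM in the HEK293T libraries. ZNF274 had 0 counts in each of the 5 KO libraries and 14.6 to 25.4 CPM in the 5 WT libraries. A gene was called when edgeR's quasi-likelihood test gave a Benjamini-Hochberg adjusted p below 0.05 over all genes tested and the fold change (FC) was above 2.

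The NPC label was compared with a list of 15 neural progenitor genes, of which 14 were in the table. In the WT NPC libraries NES, SOX2, PAX6 and OTX2 were at 50.7 CPM or more, whereas HES5, also on that list, was at 0.284 CPM or below. The KO NPC libraries were called lower for 9 of the 14, SOX1, SOX2, SOX3, PAX6, FABP7, MSI1, LHX2, OTX2 and PTPRZ1, and had 0 counts of HES5. SOX2 was at 227 and 219 CPM in the WT and 12.7 and 21.1 CPM in the KO libraries. The summed level of the list overlapped between the groups, at 3080 to 4246 CPM in WT and 3198 to 3266 CPM in KO, because NES made up most of it and was not called.

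Markers of other cells also moved in the KO NPC libraries. Of 10 neuron markers 5 were called lower and 1 (ELAVL4) higher, and their summed level was 1298 to 1313 CPM in WT and 187 to 246 CPM in KO. Of 14 mesenchymal markers tested 8 were called higher and 0 lower, with sums of 2465 to 3081 against 9227 to 10099 CPM. TWIST2, also on that list, was at 0 throughout and was not tested, whereas TWIST1 was called higher. Of 5 neural crest markers 3 were called higher (sums of 20.5 to 25.1 against 138 to 207 CPM), of 5 epithelial markers 2 higher (342 to 596 against 1306 to 1468 CPM), of 5 endothelial markers 2 higher and 1 lower (48.6 to 174 against 82.3 to 109 CPM), and of 4 pluripotency markers 1 higher and 1 lower (139 to 161 against 65.1 to 70.4 CPM). Their part in the values below was not tested, and in bulk libraries fewer cells of a type and less RNA per cell cannot be told apart.

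In NPCs, loss of ZNF274 went with large changes in both directions among these genes. All 68 members were tested, and 28 (41.2%) were called: 11 higher and 17 lower in KO. Over all 20577 genes tested, 16.8% were called, 8.45% higher and 8.36% lower, and among the genes with a mean of at least 1 CPM the share was 21.2%. Each of the 28 called members had a mean above that level. Ligands gave 6 higher and 10 lower of 35, and receptors 5 higher and 7 lower of 33. The median log2 FC was -0.13 over the members and -0.02 over all genes tested. The level ranges of WT and KO libraries did not overlap for 48 of the 68 members, near the share of 67.1% over all genes tested.

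**Figure D1:**
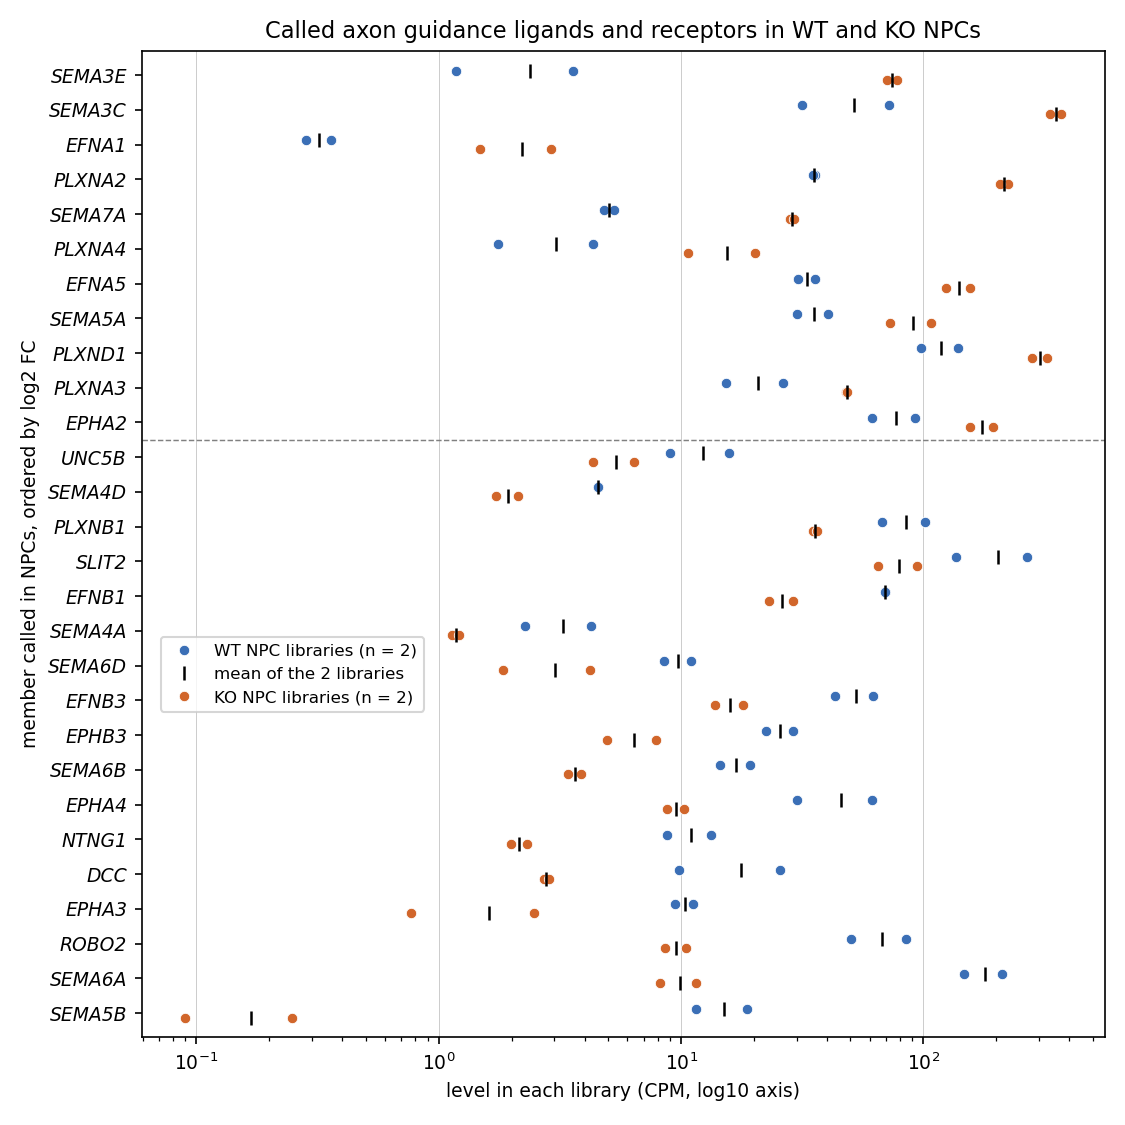
Level of the 28 called members in the 2 WT and the 2 KO NPC libraries. The x axis is CPM on a log10 scale, each dot is a library, vertical ticks are means, and the dashed line separates the 11 members called higher in KO (above) from the 17 called lower (below). No WT dot lies within the KO range of its gene; SEMA3E at the top and SEMA5B at the bottom have the widest gaps.

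**Figure D2:**
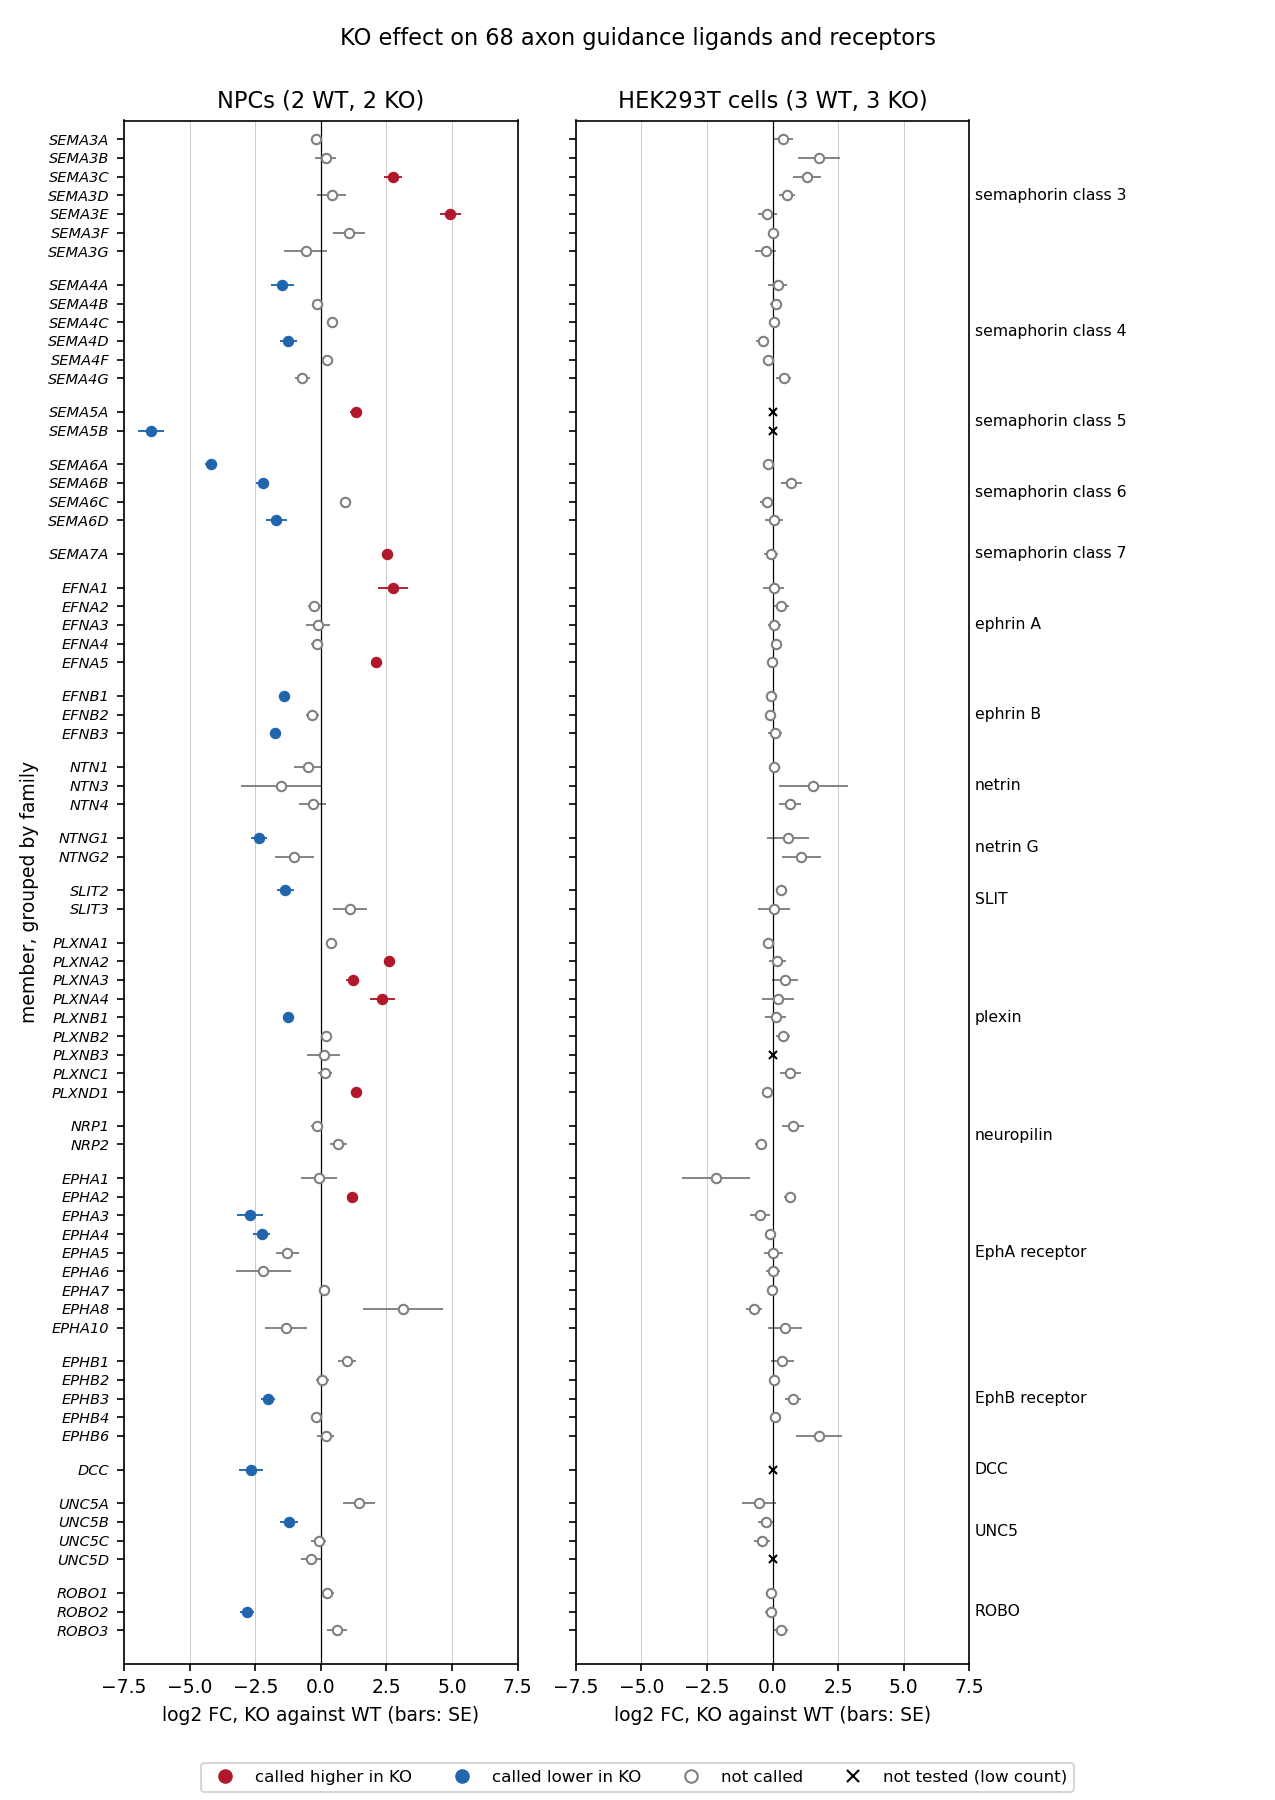
Log2 FC of KO against WT for the 68 members in NPCs (left) and HEK293T cells (right), grouped by family, with standard errors as bars. Filled red and blue dots were called higher or lower in KO, open dots were not called, and crosses mark 5 members with too few counts for a test in HEK293T cells. The 28 filled dots are all in the NPC panel.

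The semaphorins showed the widest range of changes, and promoter windows are printed for 4 genes, 3 semaphorins and a plexin. SEMA3E, the member with the highest FC, is shown with PLXND1, which encodes its receptor and was also up-regulated, and SEMA5A with SEMA5B, paralogs that moved in opposite directions. The windows run from 250 bases before to 50 bases after an annotated start, 5′ to 3′ on the strand of the gene (the minus strand for all 4), and come from RefSeq on GRCh38.p14. Capitals mark CG dinucleotides, the sites of DNA methylation. SEMA3E has windows at 2 starts, which hold 1 and 6 CG, whereas the PLXND1 window holds 52:

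SEMA3E chr7:83641382-83641681: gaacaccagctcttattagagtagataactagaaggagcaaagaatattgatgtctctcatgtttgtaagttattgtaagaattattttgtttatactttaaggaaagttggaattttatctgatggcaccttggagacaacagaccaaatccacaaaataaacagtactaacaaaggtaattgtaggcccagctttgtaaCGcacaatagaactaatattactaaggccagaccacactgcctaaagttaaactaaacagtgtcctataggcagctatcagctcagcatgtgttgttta
SEMA3E chr7:83649090-83649389: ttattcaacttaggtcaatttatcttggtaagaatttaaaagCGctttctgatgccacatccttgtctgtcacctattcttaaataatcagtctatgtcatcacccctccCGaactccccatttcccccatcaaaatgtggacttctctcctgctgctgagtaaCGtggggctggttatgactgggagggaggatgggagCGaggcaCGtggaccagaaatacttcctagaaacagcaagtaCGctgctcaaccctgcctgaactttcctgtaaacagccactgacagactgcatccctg
PLXND1 chr3:129606627-129606926: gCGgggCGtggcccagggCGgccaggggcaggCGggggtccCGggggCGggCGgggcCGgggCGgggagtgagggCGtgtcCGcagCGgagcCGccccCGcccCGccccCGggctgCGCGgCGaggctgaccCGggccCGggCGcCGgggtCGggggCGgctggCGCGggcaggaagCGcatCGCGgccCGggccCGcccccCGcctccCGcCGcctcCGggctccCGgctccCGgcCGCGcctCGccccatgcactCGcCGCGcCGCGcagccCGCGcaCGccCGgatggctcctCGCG

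The SEMA5A window holds 39 CG, and the 3 windows of SEMA5B hold 7, 32 and 7:

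SEMA5A chr5:9546026-9546325: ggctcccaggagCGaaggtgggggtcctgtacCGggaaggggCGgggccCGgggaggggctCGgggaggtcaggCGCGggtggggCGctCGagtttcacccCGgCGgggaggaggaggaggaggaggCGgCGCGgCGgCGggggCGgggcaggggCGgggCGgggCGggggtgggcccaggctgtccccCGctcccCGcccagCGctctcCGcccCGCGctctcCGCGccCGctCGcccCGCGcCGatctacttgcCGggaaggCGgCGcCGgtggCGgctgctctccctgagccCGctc
SEMA5B chr3:122993189-122993488: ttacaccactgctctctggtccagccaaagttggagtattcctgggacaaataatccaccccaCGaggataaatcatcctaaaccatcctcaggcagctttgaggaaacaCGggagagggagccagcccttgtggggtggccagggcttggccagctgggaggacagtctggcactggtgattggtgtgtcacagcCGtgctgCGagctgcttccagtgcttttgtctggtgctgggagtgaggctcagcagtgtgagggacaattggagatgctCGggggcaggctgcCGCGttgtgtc
SEMA5B chr3:123027714-123028013: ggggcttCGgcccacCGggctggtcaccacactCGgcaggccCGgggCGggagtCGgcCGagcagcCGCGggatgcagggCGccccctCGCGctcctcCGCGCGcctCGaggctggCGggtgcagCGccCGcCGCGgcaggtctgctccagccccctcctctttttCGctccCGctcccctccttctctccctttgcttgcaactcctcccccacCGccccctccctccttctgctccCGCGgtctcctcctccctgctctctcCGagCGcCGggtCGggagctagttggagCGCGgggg
SEMA5B chr3:123028556-123028855: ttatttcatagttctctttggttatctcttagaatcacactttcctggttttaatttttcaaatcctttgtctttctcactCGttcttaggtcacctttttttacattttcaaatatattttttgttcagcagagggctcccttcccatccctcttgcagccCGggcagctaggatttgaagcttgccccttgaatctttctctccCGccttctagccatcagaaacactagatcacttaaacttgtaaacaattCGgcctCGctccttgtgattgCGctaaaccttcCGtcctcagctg

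Windows were given for 57 of the 68 members, 91 in all, and their median was 21 CG against 14 over all 35116 windows. More CG than in 99.2% of all windows were found for PLXND1, and more than in 33.7% for the richer SEMA3E window. The TATA sequence TATAAA, searched on both strands, was in 3 of the 91 member windows (3.3%) and in 11.5% of all windows; the SEMA3E window starting at 83641382 was among the 3. The E-box CANNTG, which reads the same on both strands, was in 60.4% of member windows and 68.7% of all windows. These letters describe the windows and say nothing of which factors bind there.

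Class 3 semaphorins, the secreted group, had 2 of 7 members called, both higher. SEMA3E (chromosome 7, 82992554 to 83278455, minus strand, hg19), a repellent known from vessel patterning, was at 3.6 and 1.18 CPM in the WT libraries S3 and S5 and at 77.7 and 70.8 CPM in the KO libraries S1 and S2. Both KO libraries stood far above both WT libraries, which themselves differed by more than 2-fold. The ratio of the means was 31.1, and the log2 FC 4.94 (SE 0.407, adjusted p = 0.000300, edgeR). SEMA3C, which guides neural crest cells of the heart as well as axons, was at 31.7 and 71.9 CPM in WT and at 369 and 334 CPM in KO. The groups did not overlap although the WT libraries again differed by more than 2-fold, and the log2 FC was 2.77 (SE 0.344, adjusted p = 0.00150).

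The other 5 class 3 genes did not pass the test. SEMA3A, the best known growth cone repellent and the class 3 gene with the most counts per kb of exon in WT NPCs, was at 178 and 181 CPM in WT and 176 and 139 CPM in KO, with a log2 FC of -0.19 (SE 0.134, adjusted p = 0.339). On the scale of CPM per kb, SEMA3A accounted for 54.4 to 57.7% of the summed class 3 level in the WT libraries and for 16.6 to 18.8% in KO, where SEMA3C accounted for 59.8 to 60.4%. SEMA3F was at 43.1 and 7.98 CPM in WT and 51.6 and 55.6 CPM in KO. Its WT libraries lay far apart, and SEMA3F was called only without the WT library S3. SEMA3B, SEMA3D and SEMA3G had log2 FC values from -0.58 to 0.42, and SEMA3D gained a call only without S3. The genes SEMA3E, SEMA3A and SEMA3D lie in a row on chromosome 7 (hg19) with gaps of 307 and 503 kb, and of these 3 SEMA3E alone was called.

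Class 6 semaphorins, transmembrane proteins that bind A-class plexins directly, had 3 of 4 members called, all lower. SEMA6A (chromosome 5, 115779251 to 115910519, minus strand, hg19), a cue in neuronal migration, was at 147 and 212 CPM in WT and 11.6 and 8.2 CPM in KO. The KO libraries lay far below both WT libraries, by 18.2-fold on the means, with a log2 FC of -4.19 (SE 0.244, adjusted p = 8.2e-05). SEMA6B was at 19.2 and 14.5 against 3.41 and 3.87 CPM, and its log2 FC was -2.21 (SE 0.248, adjusted p = 0.00101). SEMA6D was at 11.0 and 8.5 against 4.2 and 1.85 CPM, with a log2 FC of -1.69 (SE 0.406, adjusted p = 0.0206), and its call was lost without the KO library S2. In all 3 the groups were apart. SEMA6C, the remaining class 6 gene, was at 11.7 and 9.67 against 23.4 and 17.6 CPM. Its adjusted p was 0.0190 but its log2 FC of 0.93 stayed short of a 2-fold change. It gained a call without S2, without S3 and with no FC threshold. On the per-kb scale SEMA6A made up 64.6 to 77.1% of the summed class 6 level in WT and 15.6 to 16.8% in KO, where SEMA6C made up 62.9 to 64.0%.

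The class 5 pair carries thrombospondin repeats outside the cell and split in direction. SEMA5A was at 30.2 and 40.4 CPM in WT and 108 and 72.6 CPM in KO, with a log2 FC of 1.35 (SE 0.223, adjusted p = 0.00459). SEMA5B was at 11.5 and 18.7 CPM in WT and 0.247 and 0.0901 CPM in KO, which is 5 and 2 counts. It thus fell almost to the level of a few reads, with a log2 FC of -6.46 (SE 0.494, adjusted p = 0.000234). SEMA5A provided 60.0 to 64.5% of the summed class 5 level per kb in WT and 99.7 to 99.8% in KO.

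SEMA7A, the only class 7 gene, is tethered to the membrane by a lipid anchor and promotes axon outgrowth. It was at 4.83 and 5.27 CPM in WT and 28.2 and 29.3 CPM in KO, with narrow spread in both groups and a log2 FC of 2.51 (SE 0.182, adjusted p = 0.000193). Class 4 semaphorins had 2 of 6 members called, both lower and both at low level. SEMA4A was at 2.27 and 4.25 against 1.14 and 1.22 CPM, with a log2 FC of -1.46 (SE 0.441, adjusted p = 0.046). SEMA4D, the ligand of plexin-B1, was at 4.54 and 4.56 against 1.73 and 2.12 CPM, with a log2 FC of -1.24 (SE 0.321, adjusted p = 0.0274). These are weak calls: SEMA4A lost its call in DESeq2, in voom and without S1, S2 or S5, and SEMA4D without S1 or S2. SEMA4G, with the highest mean per kb of this class in WT, was at 24.3 and 14.4 against 13.5 and 10.2 CPM and was not called (log2 FC -0.71, SE 0.285, adjusted p = 0.109). In the WT libraries SEMA4G made up 20.8 to 34.5% of the summed class 4 level per kb, and SEMA4C 20.9 to 31.5%. Of the exonic length of SEMA4G, 28% overlaps genes on the other strand. A call for SEMA4G appeared only without S5. SEMA4B, SEMA4C and SEMA4F had log2 FC values from -0.15 to 0.44.

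Plexins, the signalling receptors of semaphorins, had 4 of 9 members called higher and 1 lower. PLXNA2 (chromosome 1, 208195587 to 208417729, minus strand, hg19), a receptor for class 6 and, with neuropilins, class 3 semaphorins, was at 35.6 and 35.1 CPM in WT and 223 and 206 CPM in KO. Replicates were close in both groups, the means differed by 6.08-fold, and the log2 FC of 2.60 (SE 0.112) had an adjusted p of 3.03e-05, the lowest of the members. PLXND1, the SEMA3E receptor, was at 97.5 and 138 CPM in WT and 323 and 280 CPM in KO, with a log2 FC of 1.35 (SE 0.177, adjusted p = 0.00185). SEMA3E and PLXND1 were thus both higher in both KO libraries than in either WT library.

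PLXNA4 and PLXNA3 also rose. PLXNA4 was at 1.75 and 4.35 CPM in WT and 20.2 and 10.7 CPM in KO, with a log2 FC of 2.35 (SE 0.48, adjusted p = 0.0113), and lost its call without the KO library S1. PLXNA3 was at 15.3 and 26.3 against 48.1 and 48.5 CPM, with a log2 FC of 1.21 (SE 0.244, adjusted p = 0.0105). This call was lost without S1, S2 or S3 and in a fit over all 10 libraries. PLXNB1 was lower in KO, at 67.2 and 102 against 35.2 and 36.3 CPM, with a log2 FC of -1.24 (SE 0.197, adjusted p = 0.00404), a call that was lost without S5. PLXNB2, the plexin with the most counts per kb in WT NPCs, was at 183 and 221 against 227 and 239 CPM and was not called (log2 FC 0.21, SE 0.123, adjusted p = 0.251). PLXNA1, PLXNB3 and PLXNC1 had log2 FC values from 0.11 to 0.38.

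Neuropilins, the ligand-binding co-receptors of most class 3 semaphorins, gave no call. NRP1 was at 115 and 74.4 CPM in WT and 77.2 and 92.6 CPM in KO, so that the groups overlapped, with a log2 FC of -0.16 (SE 0.209, adjusted p = 0.616). NRP2 was at 89.7 and 208 CPM in WT and 230 and 242 CPM in KO, with a log2 FC of 0.67 (SE 0.334, adjusted p = 0.182). Both KO libraries were above both WT libraries for NRP2, but the WT libraries differed by more than 2-fold, and a call appeared only without S5.

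Of the ephrins 4 of 8 were called. Ephrin-A ligands, held at the membrane by a lipid anchor, had 2 of 5 members called, both higher, and ephrin-B ligands, which span the membrane, had 2 of 3 called, both lower; a difference between the classes was not tested. EFNA5, a repellent of retinal and cortical axons, was at 30.3 and 35.5 CPM in WT and 156 and 124 CPM in KO, with a log2 FC of 2.09 (SE 0.155, adjusted p = 0.000211). EFNA1 was low in WT, at 0.284 and 0.358 CPM, and at 2.91 and 1.49 CPM in KO, with a log2 FC of 2.75 (SE 0.577, adjusted p = 0.0124), a call that was lost without S1. EFNB1 was at 69.4 and 69.3 against 28.9 and 23.1 CPM, with a log2 FC of -1.42 (SE 0.149, adjusted p = 0.000785). EFNB3 was at 62.0 and 43.2 against 18 and 13.8 CPM, with a log2 FC of -1.73 (SE 0.223, adjusted p = 0.00175).

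The remaining ephrins included the leading member of each class in WT NPCs. EFNB2, with the most counts per kb of all 68 members there (41.6 CPM per kb), was at 148 and 268 against 177 and 155 CPM and was not called (log2 FC -0.33, SE 0.252, adjusted p = 0.382). EFNA4 was at 12.3 and 10 against 10.5 and 9.64 CPM (log2 FC -0.15, SE 0.217, adjusted p = 0.648), and EFNA2 and EFNA3 had log2 FC values of -0.25 and -0.11. On the per-kb scale EFNA5 went from 27.5 to 35.2% of the summed ephrin-A level in WT to 65.7 to 67.8% in KO. EFNA4, EFNA3 and EFNA1 lie next to each other on chromosome 1 with gaps of 9.28 and 40.3 kb, and of the 3 EFNA1 alone was called. Of the exonic length of EFNA3, 43.9% is shared with a readthrough transcript, and 36.4% of that of EFNB2 overlaps a gene on the other strand; the strand setting of the counting was not given in the sources used here.

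Eph receptors, the tyrosine kinases that bind ephrins, had 1 of 14 members called higher and 3 lower. EPHA2, prominent in epithelia, was at 61.6 and 92.0 CPM in WT and 155 and 193 CPM in KO, with a log2 FC of 1.18 (SE 0.203, adjusted p = 0.00551), and the call was lost without S3. Of the 5 epithelial markers KRT8 and KRT18 were called higher in the same libraries, and EPCAM, CDH1 and KRT19 were not called. The log2 FC of the 5 ran from -0.57 to 2.25, and their part in the EPHA2 value was not tested. EPHA4, which binds ephrins of both classes, was at 61.1 and 30.0 against 10.3 and 8.78 CPM, with a log2 FC of -2.26 (SE 0.33, adjusted p = 0.00286). EPHA3 was at 11.2 and 9.47 against 2.47 and 0.766 CPM, with a log2 FC of -2.68 (SE 0.497, adjusted p = 0.00747). Without S1 this log2 FC was -3.75, and without S2 it was -2.08. EPHB3 was at 28.8 and 22.5 against 7.85 and 4.95 CPM, with a log2 FC of -2.00 (SE 0.269, adjusted p = 0.00204).

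The other Eph receptors were not called by edgeR after TMM scaling. In voom EPHB1 was called, and EPHA5 was called when edgeR scaled by library size alone. Leaving out a library also gave calls: EPHA6 without S1, S3 or S5, EPHB1 without S3, and EPHA5 and EPHA10 without S5. EPHB4, the ephrin-B2 receptor of veins and the EphB gene with the most counts per kb, was at 86.4 and 102 against 85.3 and 80.2 CPM (log2 FC -0.18, SE 0.123, adjusted p = 0.311). EPHA7 (157 and 177 against 186 and 173 CPM) and EPHB2 (99.8 and 169 against 123 and 156 CPM) overlapped between the groups. EPHA5, EPHA6, EPHA8, EPHA10, EPHA1, EPHB1 and EPHB6 had log2 FC values from -2.19 to 3.13, and the extremes belonged to EPHA6 and EPHA8, whose highest libraries reached 1.74 and 0.395 CPM. EPHA2 made up 42.5 to 57.2% of the summed EphA level per kb in WT and 73.7 to 79.3% in KO.

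DCC, the netrin receptor for attraction, fell in KO NPCs. It was at 25.5 and 9.78 CPM in WT and 2.72 and 2.84 CPM in KO, and although the WT libraries differed by more than 2-fold the KO libraries lay below both. The log2 FC was -2.67 (SE 0.455, adjusted p = 0.00535). Of the UNC5 receptors UNC5B alone was called, at 15.7 and 9.01 against 6.42 and 4.32 CPM with a log2 FC of -1.20 (SE 0.342, adjusted p = 0.038), and this call was lost in voom and without S1, S2 or S3. UNC5C, highest of the 4 per kb, was at 41.5 and 58.8 against 61.4 and 33.4 CPM (log2 FC -0.08, SE 0.292, adjusted p = 0.866). UNC5A and UNC5D had log2 FC values of 1.46 and -0.37 and were not called, and UNC5A gained a call only without S3.

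The netrins themselves were low. NTN1, NTN3 and NTN4 were at 5.94 CPM or below in every NPC library, and none was called (log2 FC from -1.51 to -0.30). NTN4, highest of these per kb in WT, was at 1.99 and 5.94 against 2.77 and 3.65 CPM (log2 FC -0.30, SE 0.515, adjusted p = 0.71). NTNG1, a lipid-anchored relative that binds a synaptic adhesion protein and not DCC, was at 8.76 and 13.3 against 2.32 and 1.98 CPM. The KO libraries were clearly below WT, with a log2 FC of -2.36 (SE 0.314, adjusted p = 0.00196). NTNG2 was at 1.18 CPM or below and was not called (adjusted p = 0.354).

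SLIT2 and its receptor ROBO2 were both lower in KO NPCs. ROBO2 (chromosome 3, 75955846 to 77699115, plus strand, hg19) was at 50.2 and 84.4 CPM in WT and 10.5 and 8.6 CPM in KO, a 7.06-fold difference of means with a log2 FC of -2.82 (SE 0.268, adjusted p = 0.000510). SLIT2, a midline repellent, was at 268 and 136 CPM in WT and 93.9 and 64.7 CPM in KO, with a log2 FC of -1.35 (SE 0.318, adjusted p = 0.0192), and its call was lost without S2 or S3. ROBO1, whose gene lies 947 kb from ROBO2, was at 33.7 and 60.0 against 62.4 and 49.3 CPM and overlapped between the groups (log2 FC 0.25, SE 0.264, adjusted p = 0.521). The pair were nearly equal in WT, where ROBO1 made up 47.5 to 48.3% and ROBO2 45.0 to 47.0% of the summed ROBO level per kb, whereas ROBO1 made up 76.4 to 79.7% in KO. ROBO3 (log2 FC 0.61) was not called and gained a call only without S5. SLIT3, at 47.8 and 8.8 against 76.1 and 46.9 CPM, was not called either, and it gained a call only without S3.

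**Figure D3:**
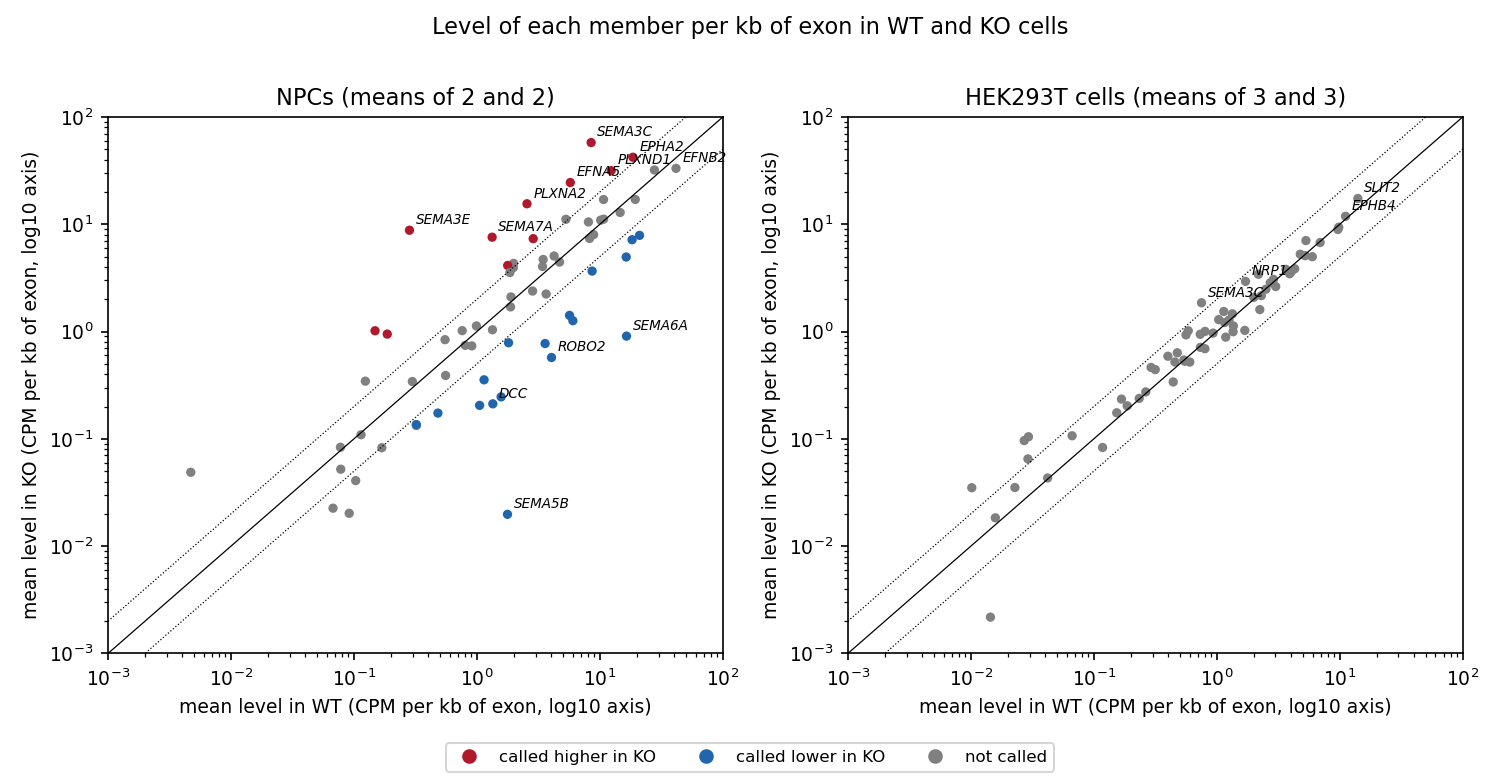
Mean level of each member in WT (x axis) against KO (y axis), in CPM per kb of exon on log10 axes, for NPCs (left, 2 libraries a group) and HEK293T cells (right, 3 libraries a group). Solid lines mark equal levels and dotted lines a 2-fold difference; the 5 members not tested in HEK293T cells are left out there. SEMA3C, at 8.49 in WT and 57.7 in KO, became the highest member in KO NPCs, and SEMA6A dropped from 16.5 to 0.906.

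The order of levels was rearranged accordingly. In WT NPCs the highest members per kb of exon were EFNB2 (41.6 CPM per kb), PLXNB2 (27.7), EFNB1 (21.0), SEMA3A (19.4) and EPHA2 (18.5). In KO NPCs they were SEMA3C (57.7), EPHA2 (42.1), EFNB2 (33.2), PLXNB2 (32.0) and PLXND1 (31.5). In both genotypes 59 members had a mean of at least 1 CPM, and 43 in WT and 36 in KO reached 10 CPM. The summed class 3 semaphorin level was 33.9 to 35.3 CPM per kb in the WT and 90.6 to 101 in the KO libraries, and that of the plexins 55.3 to 71.3 against 98.9 to 102. Class 6 semaphorins went from 20.9 to 25.2 in WT to 4.83 to 6.32 in KO.

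A list of 66 further genes of the pathway (co-receptors, adhesion partners and cytoplasmic effectors) had 8 members called higher and 16 lower in NPCs (36.4% in all, against 16.8% of all genes tested, 8.45% higher and 8.36% lower). Among all genes with a mean of at least 1 CPM the share called was 21.2%. The list was chosen with earlier results of these data known, so its share is descriptive only. Among the cell-surface and extracellular partners, DRAXIN, a secreted netrin and DCC ligand, was at 22.8 and 19 CPM in WT and 1.88 and 2.16 CPM in KO (log2 FC -3.37, SE 0.24, adjusted p = 0.000177). NRCAM, an adhesion molecule that pairs with neuropilin-2, was at 24.1 and 73.6 against 2.22 and 2.07 CPM (log2 FC -4.50, SE 0.544, adjusted p = 0.00133), whereas L1CAM, which pairs with neuropilin-1, was at 82.5 and 72.4 against 381 and 343 CPM (log2 FC 2.23, SE 0.122, adjusted p = 6.7e-05). Of the CRMP proteins, cytoplasmic mediators of semaphorin signals, CRMP1, DPYSL3, DPYSL4 and DPYSL5 were called lower and DPYSL2 was not called. DPYSL5 was at 541 and 745 against 85.7 and 98.3 CPM (log2 FC -2.81, SE 0.176, adjusted p = 0.000107). MICAL2, of a family of enzymes that oxidise actin, was higher, at 7.1 and 15.5 against 179 and 174 CPM (log2 FC 3.97, SE 0.328, adjusted p = 0.000302). The small GTPases RHOA, RAC1 and CDC42 and the kinases ROCK1 and ROCK2 were not called. In HEK293T cells 0 of the 63 partners tested were called in edgeR or voom and 1 in DESeq2, and 3 had an unadjusted p below 0.05 in edgeR; 1 was also called without S18.

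In HEK293T cells none of the members was called. Of the 68, 63 had enough counts for the test, and 0 passed in edgeR, in DESeq2 or in voom; at an unadjusted p below 0.05 there were 5 (EPHA2, EPHA8, EPHB3, SEMA3B and SEMA3C), and the lowest adjusted p was 0.501. Over all 19018 genes tested 0.489% were called, 0.478% higher and 0.0105% lower, so that 0 of 63 is near the background. The median log2 FC was 0.07 over the members and 0.01 over all genes. The ranges of WT and KO libraries did not overlap for 7 of the 63 members tested, near the share of 12.4% over all genes tested. DCC had 0 counts in all 6 libraries, and UNC5D, PLXNB3, SEMA5A and SEMA5B were at 0.103 CPM or below, within the level that a count of 0 allows.

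Levels in HEK293T cells come from a separate count table with its own TMM scaling and were not tested against those in NPCs. Of the members, 53 had a mean of at least 1 CPM in WT, and 21 reached 10 CPM. The highest per kb was SLIT2, at 164, 154 and 147 CPM in the WT libraries (S15 to S17) and 251, 160 and 166 CPM in the KO libraries (S18 to S20), with a log2 FC of 0.31 (SE 0.177, adjusted p = 0.773). ROBO1 was at 99.0, 118 and 108 against 93.6, 128 and 88.8 CPM (log2 FC -0.06, SE 0.165, adjusted p = 0.953). EPHB4 was at 74.6, 67.6 and 73.0 against 84.3, 69.7 and 74.7 CPM (log2 FC 0.09, SE 0.137, adjusted p = 0.914). For ROBO1 and EPHB4, as for SLIT2, WT and KO libraries overlapped.

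The other families had these leading members per kb in WT HEK293T cells, and each overlapped between the groups: EPHA7 (37.4 to 48.2 CPM in WT, 35.9 to 48.9 in KO), UNC5B (38.7 to 44.6 and 19 to 50.3), EFNA5 (37.7 to 42.4 and 29.3 to 45.2), EFNB2 (46.0 to 49.8 and 40.2 to 49.4) and NTN1 (20.5 to 28.1 and 20.8 to 27.2). The same held for PLXNB2 (35.9 to 41.2 and 34.8 to 77.5), SEMA3G (5.47 to 7.68 and 2.27 to 7.95), SEMA4F (21.0 to 28.7 and 17.5 to 25.6), SEMA6A (41.7 to 43.8 and 25.5 to 45.9) and SEMA7A (2.41 to 3.14 and 2.46 to 2.99). Of the netrin-G pair, both low, NTNG1 had the higher mean in WT in CPM (0.239 against 0.147). NTNG2 had the higher mean per kb and stayed between 0.0678 and 0.611 CPM. The log2 FC values of these leading members lay between -0.27 and 0.41, except for 1.10 of NTNG2 (SE 0.748, adjusted p = 0.81).

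The KO library S18 stood apart from the other KO libraries. Of 54 members with a mean of at least 1 CPM in KO, it was over 2 times above these libraries for 5. These were EFNA1, NRP1, PLXNA3, SEMA3C and SEMA6B. It was over 2 times below them for 7: EPHA3, EPHA8, EPHB1, UNC5C, SEMA3A, SEMA3E and SEMA3G. NRP1 was at 24.7, 17.5 and 17 CPM in WT and 62.7, 15.4 and 23.2 CPM in KO, with a log2 FC of 0.77 (SE 0.416, adjusted p = 0.755). SEMA3C was at 5.01, 5.78 and 2.95 against 23.1, 6.79 and 4.07 CPM (log2 FC 1.30, SE 0.536, adjusted p = 0.653). In both genes S18 alone was above the range of the other 5 libraries by more than 2-fold. NRP2, at 17.3, 19.5 and 19.8 against 9.91, 16.2 and 15.3 CPM, had no overlap between the groups but was not called (log2 FC -0.44, SE 0.211, adjusted p = 0.72). Without S18, again 0 members were called.

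The effect of the KO was then compared between the cell types in a fit over all 10 libraries. Of the 68 members 17 were called for a difference above 1 on the log2 scale, 8 with a higher and 9 with a lower effect in NPCs. Over all 19255 genes in that test 12.2% were called, 6.01% higher and 6.22% lower. SEMA3E had a difference of 5.17 (SE 0.638, adjusted p = 0.000276), from a log2 FC of 4.94 in NPCs and -0.20 in HEK293T cells, where it was at 5.94, 7.57 and 6.78 CPM in WT and 2.58, 7.03 and 7.92 CPM in KO. SEMA6A had a difference of -3.99 (SE 0.355, adjusted p = 2.92e-05), against HEK293T levels of 43.8, 41.7 and 42.4 CPM in WT and 25.5, 41.5 and 45.9 CPM in KO. Both genes were thus expressed in HEK293T cells at levels that allowed a comparison.

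PLXNA2, PLXND1, SEMA7A and EFNA5 also differed, with values from 1.57 to 2.58 and adjusted p values from 0.000298 to 0.00150, as did ROBO2 (-2.75, SE 0.352, adjusted p = 0.000345) and EPHB3 (-2.77, SE 0.441, adjusted p = 0.00148). The remaining members called for a difference were EPHA4, SLIT2, EFNB1, EFNB3, NTNG1 and SEMA6B, with a lower effect in NPCs, and EFNA1, EPHA8 and SEMA6C, with a higher effect. Of 18 alternatives, the call was lost in 10 for EPHA8 and for SEMA6C, in 9 for NTNG1, in 4 for EFNA1, in 3 for SLIT2 and in 1 for EFNB3. Of the 28 members called in NPCs, 13 were not called here by edgeR. DCC, SEMA5A and SEMA5B were among them, and the HEK293T libraries held almost no counts of these 3 genes. The other 10 had counts in both cell types. SEMA3C had a difference of 1.5 (SE 0.793, adjusted p = 0.235) and EPHA2 of 0.56 (SE 0.296, adjusted p = 0.237), and EPHA3, PLXNA3, PLXNA4, PLXNB1, SEMA4A, SEMA4D, SEMA6D and UNC5B had differences from -2.19 to 2.18 with adjusted p values from 0.0548 to 0.508. Some of these calls depended on the tool or library: DESeq2 also called EPHA3, PLXNA4, PLXNB1 and SEMA6D, voom called SEMA5B and SEMA6D, scaling by library size alone called EPHA3, PLXNB1, SEMA4A and SEMA6D, and without S18 EPHA3, PLXNA3, SEMA3C, SEMA4A and UNC5B were called.

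**Figure D4:**
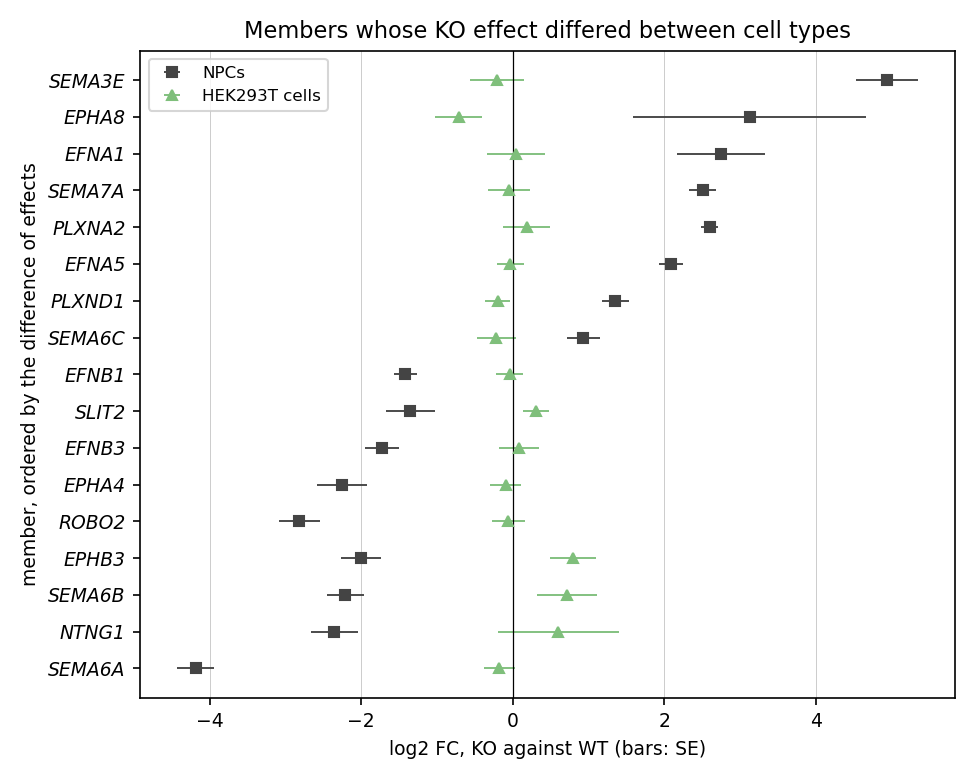
Log2 FC of KO against WT in NPCs (squares) and HEK293T cells (triangles) for the 17 members whose KO effect differed between the cell types, with standard errors as bars. Members are ordered by the difference; the NPC values run from -4.19 (SEMA6A) to 4.94 (SEMA3E), whereas the HEK293T values stay between -0.71 and 0.79.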

How the data were processed

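The authors mapped reads of stranded poly(A) libraries to hg19 with hisat2, for which the paper gives the RF strand setting for stranded data. They counted reads per gene with featureCounts. The versions and the strand setting of the counting were not given in the sources used here. They deposited raw gene counts, in 1 table for HEK293T cells (6 libraries) and 1 for NPCs (4 libraries), and samples were grouped by the genotype and cell line in their labels. Genes with fewer counts in total than libraries were left out, which left 20577 genes in NPCs and 19018 in HEK293T cells. Counts were scaled by TMM and tested with edgeR 4.0.16 (quasi-likelihood, R 4.3.3) per cell type, with Benjamini-Hochberg adjustment over all genes tested. The SE of a log2 FC in edgeR was derived as its size divided by the square root of the F statistic of the test. The difference of KO effects was fitted over the 19255 genes of both tables with at least 10 counts in total. Alternatives were voom (limma 3.58.1, the test of the study), DESeq2 1.42.0, other scalings, filters and thresholds, and leaving out each library. Coordinates and exonic lengths are from GENCODE v44 lifted to hg19. The procedures were tested on simulated data.

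The members and lists were chosen with earlier results of these data known. By rule, values in full are given for up to 12 called members per direction with a mean of at least 1 CPM, for DCC, NRP1 and NRP2, and for the highest member per kb of each family in WT cells. Values are also given for the 5 members called lower beyond these 12 and for some members that were not called; the rest are given by counts and ranges. Intervals and floors cover counting error only. Some marker genes are not reported here.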

Additional observations from a re-analysis of the deposited data

Results flagged for a closer look

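The difference of KO effects between NPCs and HEK293T cells (log2, NPC minus HEK293T) passed the test for 17 members. The higher effects in NPCs were 5.17 for SEMA3E, 3.90 for EPHA8, 2.74 for EFNA1, 2.58 for SEMA7A, 2.44 for PLXNA2, 2.14 for EFNA5, 1.57 for PLXND1 and 1.17 for SEMA6C. The lower effects were -3.99 for SEMA6A, -2.93 for NTNG1, -2.91 for SEMA6B, -2.77 for EPHB3, -2.75 for ROBO2, -2.15 for EPHA4, -1.79 for EFNB3, -1.64 for SLIT2 and -1.36 for EFNB1. EPHA8 had a single count in the WT NPC libraries together, and its adjusted p was 0.0465. NTNG1 was at 0.635 CPM or below in the HEK293T libraries, and its adjusted p was 0.0475.

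ROBO4, the ROBO receptor of endothelial cells, was listed in the NPC table only and enters no comparison between cell types. It had 0 and 3 counts in the WT NPC libraries and 100 and 130 in the KO NPC libraries, with a log2 FC of 6.07 (SE 0.732, adjusted p = 0.00132, edgeR). After scaling by the effective library sizes, the ratio of the summed counts was 73.4 (exact 95% interval 24.8 to 359, counting error only). The endothelial markers CDH5 (0.805 and 6.71 CPM in WT, 22.8 and 37.5 in KO) and TIE1 (0.521 and 0.409 against 11.8 and 14.9) were called higher in the same libraries. KDR (22.3 and 111 against 13.3 and 11.9) was called lower, and TEK and CLDN5 were not called. The part of these markers in the ROBO4 value was not tested.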

How the results depend on the processing

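The count of members called in NPCs ranged from 20 (adjusted p below 0.01) to 32 (without S5), the count for the difference between cell types from 12 (adjusted p below 0.01) to 23 (DESeq2), and the count in HEK293T cells was 0 in every alternative run. No called member changed direction in any alternative. The size of the log2 FC in NPCs moved for some members over the 13 alternatives run for each. It ran from -3.75 to -2.08 for EPHA3, -3.20 to -1.81 for DCC, -2.69 to -1.66 for EPHA4 and -7.30 to -5.91 for SEMA5B. The ranges were 4.36 to 5.97 for SEMA3E, 2.29 to 3.46 for SEMA3C, 1.81 to 3.13 for PLXNA4 and -2.40 to -1.23 for SEMA6D. Leaving out an NPC library gave 23 to 32 calls and leaves 1 library in that group, which is then assumed to vary like the others. Scaling by library size alone moved the median log2 FC of all genes in NPCs to -0.13, kept all 28 calls and added EPHA5; in the test between cell types the median moved to -0.24 and 19 members were called against 17, with EPHA8 and SEMA6C lost and EPHA3, PLXNB1, SEMA4A and SEMA6D gained. Some calls of that test rested on several libraries: EPHA8 and SEMA6C were lost in 10 and NTNG1 in 9 of 18 alternatives. EFNA1 and SLIT2 lost that call without S3, EFNA1 also without S1 or S5, SLIT2 without S2, and EFNB3 without S2. Calls over all genes in NPCs were 2084 without S1, 4038 without S5 and 5888 with no FC threshold against 3459, and 44 without S16 to 164 in DESeq2 against 93 in HEK293T cells. With no FC threshold 39 of the 66 pathway partners were called in NPCs against 24, and 1 partner was called in HEK293T cells in DESeq2, in the fit over all 10 libraries and without S18, against 0. The cause of these shifts was not tested. No paired analysis was run, because the labels do not say whether any WT and KO libraries were prepared side by side.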
